A study of Laxus oneistus with 16 samples.

Results

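The transcripts ig-h3-like-2 (TRINITY_DN54386_c1_g1_i1_4dedup) and pdi-2 (TRINITY_DN93529_c0_g1_i1_9dedup) are 2 of the 27984 transcripts counted for the marine nematode *Laxus oneistus*, and they were chosen by their identifiers. The study placed both in its development and cell adhesion category and listed both among the transcripts with the highest mean over these same libraries, so their high level is a property of how they were picked. Their names come from database matches of the assembled transcripts, to a TGF-beta-induced protein ig-h3 and to a protein disulfide isomerase. Adult worms were handpicked from Caribbean sand with their coat of sulfur-oxidizing bacteria, and batches of 50 whole worms were incubated in the dark for 24 h before their RNA, depleted of rRNA, was sequenced batch by batch. In the anoxic sulfidic incubation (AS, 3 libraries) the vials stood in bags flushed with nitrogen and 11 µM sulfide was added, and in the anoxic incubation (A, 4 libraries, numbered 1, 2, 3 and 5) the vials stood in such bags without sulfide. In the hypoxic incubation (H, 3 libraries) open vials were exposed to air, and in the oxic incubation (O, 6 libraries) open vials stood in a tank bubbled with air. The worms were wild, came from several field trips, and the labels do not say which library came from which trip.

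Proteins of the ig-h3 kind are known from mammals, where they are secreted into the extracellular matrix and link collagen to integrins on the cell surface through fasciclin domains. Protein disulfide isomerases work in the endoplasmic reticulum, where they form and rearrange the disulfide bonds of secreted proteins. In *Caenorhabditis elegans*, PDI-2 is also the beta subunit of prolyl 4-hydroxylase, the oxygen-using enzyme that hydroxylates collagen before it is built into the cuticle. The roles in *L. oneistus* itself are inferred from these matches.

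The libraries held 9032241 to 18627740 mapped reads. Libraries A3, A5, O2, O3 and O5 stood apart, because they contained 23595 to 25906 detected transcripts after thinning to equal depth, against 17587 to 20791 in the 11 others. Neither AS nor H contained such a library, so a comparison within these 5 was possible only between A and O. Each measured transcript was backed by many reads, from 21832 to 89178 for ig-h3-like-2 and from 20003 to 64380 for pdi-2. No other transcript of the same assembly component was present for either, but the counts were fractional in 15 of 16 libraries for ig-h3-like-2 and in 16 of 16 for pdi-2, as arises where the counting program splits reads that match more than one transcript. Levels are given as CPM, counts scaled to a common library size, which are not corrected for transcript length, so the level of one transcript was not compared with that of the other. As whole worms were sequenced, fewer cells of a type and less RNA per cell cannot be told apart.

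ig-h3-like-2 was lowest in AS worms and highest in H worms. The AS libraries had 2238, 1839 and 2448 CPM, the A libraries 3565, 2760, 2539 and 2048 CPM, and the H libraries 5333, 4249 and 3685 CPM. The 6 O libraries spanned 1899 to 4931 CPM with a median of 2263 CPM. All 3 H libraries lay above every AS and every A library, whereas the O libraries reached from near the lowest AS value to within the H range. The share of all transcripts whose libraries separate between conditions was not counted, here or below. pdi-2, which was nearly level, also separated AS (at most 2696 CPM) from H (at least 2704 CPM). The condition means were 2175 ± 309.4 CPM in AS (SD, n = 3), 2728 ± 632.5 CPM in A (n = 4), 4422 ± 837.8 CPM in H (n = 3) and 2760 ± 1160 CPM in O (n = 6).

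**Figure D1:**
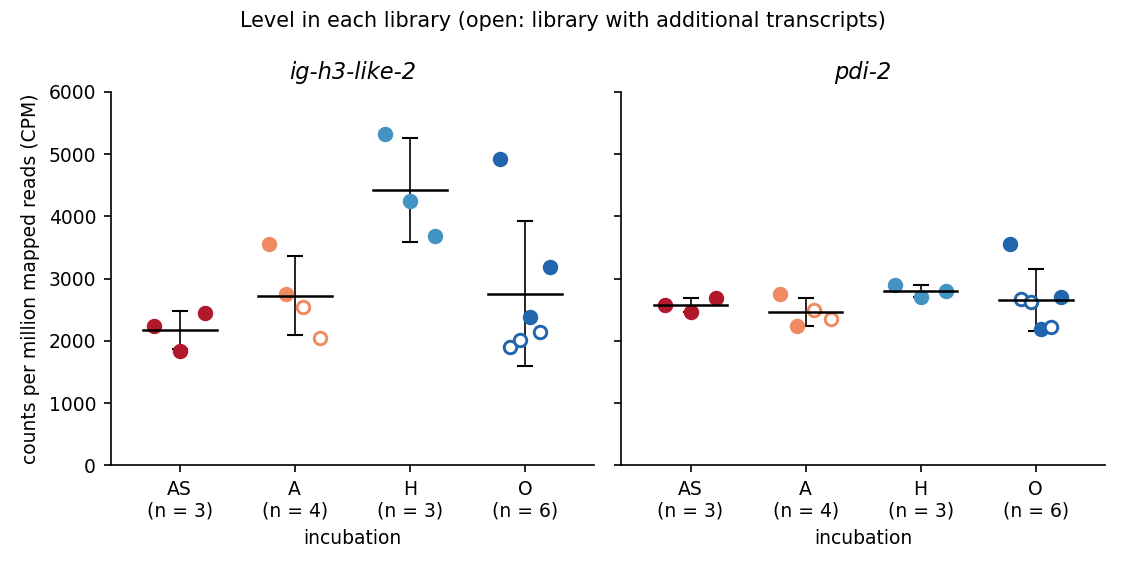
Level of ig-h3-like-2 (left) and pdi-2 (right) in each library, in CPM, by incubation. Points are libraries, open points are the 5 libraries with additional transcripts, lines and bars are the mean and SD; the 3 H libraries of ig-h3-like-2 (3685 to 5333 CPM) lie above all AS and A libraries, and pdi-2 stays between 2184 and 3560 CPM throughout.

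The widest of the 7 contrasts was that between AS and H worms. ig-h3-like-2 was lower in AS worms by a log2 fold change of -1.04 (SE 0.22), which is 0.486 of the H level with a 95% interval from 0.348 to 0.681. This difference passed the limits of an FDR of at most 0.05 and at least a 1.5-fold change (edgeR's quasi-likelihood test, FDR = 0.0399). It was thus 1 of 343 transcripts called among 17324 tested, or 1.98%. As the AS and H libraries did not overlap, leaving out any one of the 6 could not turn the direction. The log2 fold changes were then between -1.16 and -0.86, but in each case the FDR exceeded the limit (0.0607 to 0.148). Over all transcripts, edgeR called 0 without AS1 or without AS3, 4 without H1, 41 without H3, 257 without H2 and 666 without AS2. The call was also lost when all transcripts were tested without a limit on low counts (FDR = 0.0948), when all 16 libraries shared one fit (FDR = 0.11) and when the test was made against a 1.5-fold change (FDR = 0.465). Depth was alike in the libraries compared, at 13865529 to 14936051 reads in AS and 13155250 to 15123804 reads in H, and none of them carried the additional transcripts.

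**Figure D2:**
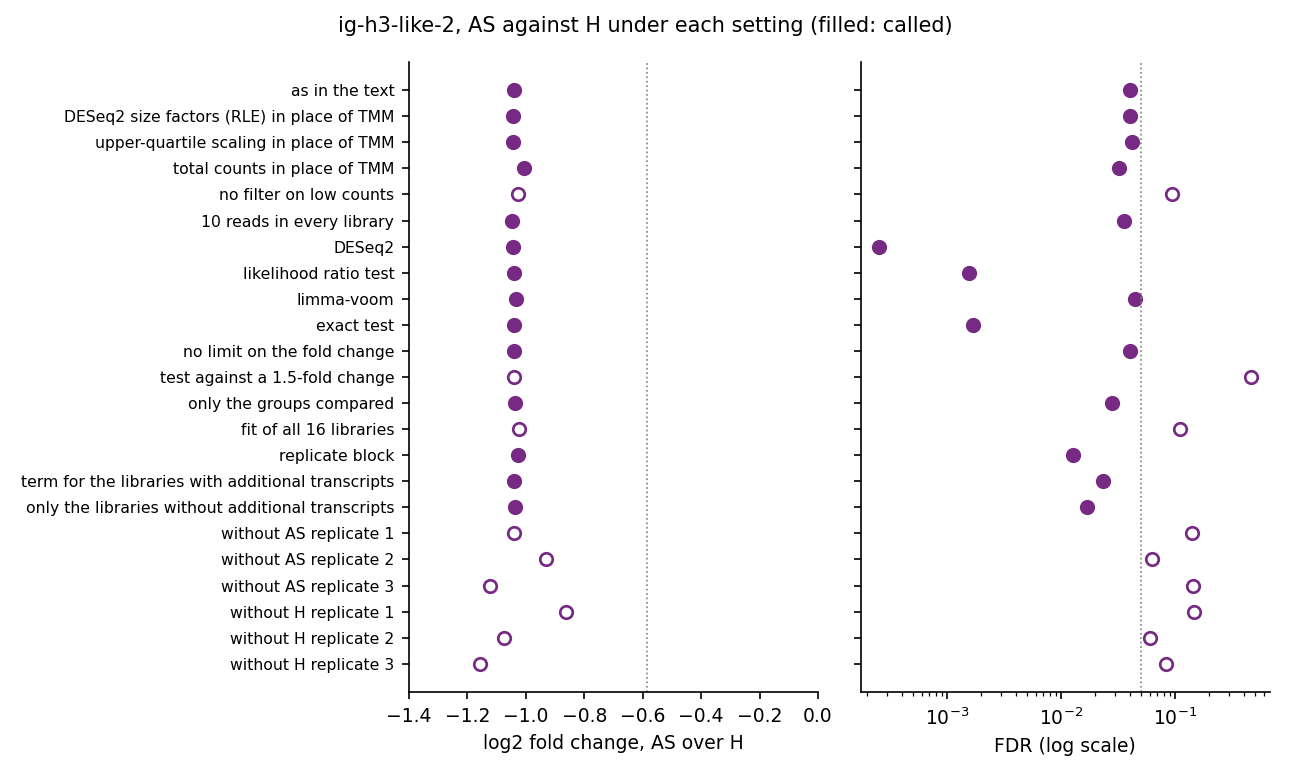
ig-h3-like-2 in AS against H under the test of the text and 22 alternatives (rows). The left panel gives the log2 fold change of AS over H, the right panel the FDR on a log axis, dotted lines mark the 1.5-fold and 0.05 limits, and filled points passed both; the fold change stays between -1.16 and -0.86, whereas 9 alternatives, all 6 single-library omissions among them, lie beyond the FDR limit.

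The other comparisons of ig-h3-like-2, which share libraries with one another and with that of AS and H, did not pass. A worms had 0.617 of the H level (log2 fold change -0.70, SE 0.21, 95% interval -1.14 to -0.25, FDR = 0.373, edgeR's quasi-likelihood test), and 18 of 17324 transcripts (0.104%) were called in that comparison. The A and H libraries did not overlap, but how many of all transcripts separate in this way was not counted. A3 and A5, which carry the additional transcripts, had 2539 and 2048 CPM against 3565 and 2760 CPM in A1 and A2, and without A3 and A5 the log2 fold change of A against H was -0.48. H worms had 1.6 times the O level (log2 fold change 0.68, SE 0.26, 95% interval 0.12 to 1.24, FDR = 0.384), and 0 of 19093 transcripts (0%) passed there in edgeR's quasi-likelihood test, with 2472 at an unadjusted p under 0.05 and 127 called by DESeq2. Between AS and A worms the log2 fold change was -0.34 (95% interval -0.80 to 0.11, FDR = 0.502), where again 0 of 17324 transcripts (0%) were called by edgeR, with 2358 at an unadjusted p under 0.05 and 442 called by DESeq2. AS against O gave the same log2 fold change of -0.34 with a wider interval of -0.92 to 0.23 (FDR = 0.604, edgeR), with 0.571% of transcripts called. A against O gave -0.02 (95% interval -0.54 to 0.50, FDR = 0.997, edgeR), with 0.131% called, and the sign of this small value turned in 8 of 26 alternatives.

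In the order of means (AS, A, O, H) no neighbours differed by the test, and only the ends did. Worms without oxygen (AS and A, 1839 to 3565 CPM) had a log2 fold change of -0.52 against worms with oxygen (H and O, 1899 to 5333 CPM; SE 0.20, FDR = 0.282, edgeR's quasi-likelihood test), in a comparison that called 0.665% of 19093 transcripts. A test for any difference among the 4 incubations likewise missed the limit (FDR = 0.258, edgeR), where 0.629% of transcripts passed the FDR limit.

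Within O, the ig-h3-like-2 levels did not overlap between libraries with and without the additional transcripts. The share of all transcripts that separate in this way was not counted. O1, O4 and O6, which lacked them, had 4931, 2384 and 3195 CPM, whereas O2, O3 and O5, which carried them, had 1899, 2008 and 2143 CPM. Over all conditions the 5 libraries with additional transcripts averaged 2127 ± 246.1 CPM (SD) and the 11 others 3330 ± 1142 CPM. Within the libraries lacking them the log2 fold change of A against O was -0.15, and within the 5 that carried them, a comparison added after the data were seen, it was 0.19, neither of them called. For AS against O the fold change without these libraries was -0.70 (FDR = 0.423, edgeR), larger than over all libraries but not called, and for H against O it was 0.33 (FDR = 0.854). The part that the additional transcripts play in these values was not tested.

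pdi-2 was nearly level across the incubations. The AS libraries had 2572, 2472 and 2696 CPM, the A libraries 2758, 2242, 2495 and 2355 CPM, and the H libraries 2898, 2704 and 2798 CPM. The 6 O libraries spanned 2184 to 3560 CPM with a median of 2642 CPM. The AS and H libraries did not overlap, but by a margin of only 2696 against 2704 CPM, and the highest value of all was that of O1, the same batch that was highest among O worms for ig-h3-like-2. The condition means were 2580 ± 112.6 CPM in AS (SD, n = 3), 2462 ± 222.4 CPM in A (n = 4), 2800 ± 97.0 CPM in H (n = 3) and 2659 ± 496.1 CPM in O (n = 6).

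None of the 7 comparisons of pdi-2 was called, and no neighbours in the order of means (A, AS, O, H) differed by the test. The log2 fold change was -0.13 for AS against H (95% interval -0.46 to 0.19, FDR = 0.662, edgeR's quasi-likelihood test) and -0.18 for A against H (95% interval -0.48 to 0.12, FDR = 0.787). Both intervals lie within a 1.5-fold change in either direction, which is 0.585 on the log2 scale. So did those of the remaining comparisons, where the values were 0.05 for AS against A, 0.07 for H against O, -0.11 for A against O, -0.04 for AS against O and -0.11 for no oxygen against oxygen, with FDR values between 0.747 and 0.966 and interval bounds between -0.38 and 0.37. The test for any difference among the 4 incubations gave an FDR of 0.861 (edgeR).

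**Figure D3:**
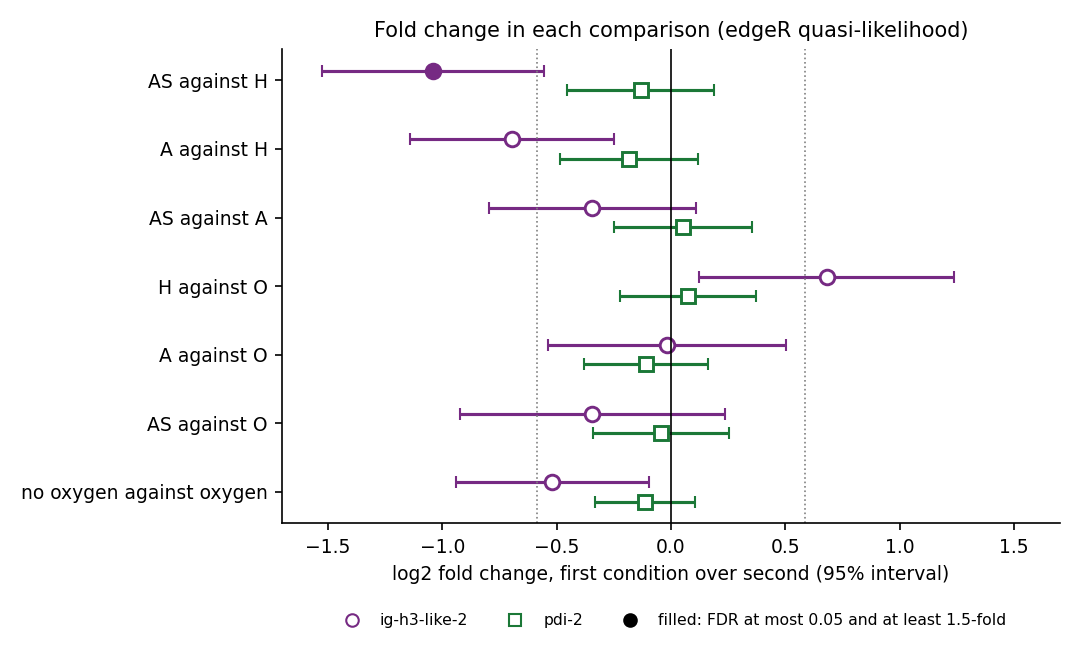
Log2 fold change of ig-h3-like-2 (circles) and pdi-2 (squares) in the 7 comparisons (rows), first condition over second, with 95% intervals. Dotted lines mark a 1.5-fold change and filled symbols passed FDR and fold limits; AS against H of ig-h3-like-2 (-1.04) is the only filled symbol.

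ig-h3-like-2 varied more between batches than pdi-2 did. Replicate libraries of one condition differed by an SD of 0.40 on the log2 CPM scale for ig-h3-like-2 and of 0.18 for pdi-2, against a median of 0.26 for the 1000 transcripts of highest mean. Of these 1000, 864 had a smaller SD than ig-h3-like-2 and 213 a smaller SD than pdi-2. The condition means of log2 CPM spanned 1.02 for ig-h3-like-2 and 0.19 for pdi-2, with a median of 0.38 over the same 1000 transcripts.

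The ratio of ig-h3-like-2 to pdi-2 within a library does not depend on scaling between libraries. It was 0.87, 0.744 and 0.908 in AS, 1.29, 1.23, 1.02 and 0.87 in A, and 1.84, 1.57 and 1.32 in H, and it ranged from 0.712 to 1.39 in O with a median of 1.03. Since neither transcript was corrected for length, only its differences between conditions can be read. The H ratios lay above all AS and A ratios, and the mean log2 ratio was lower by 0.90 in AS than in H (-0.26 ± 0.15 in AS beside 0.64 ± 0.24 in H, SD over 3 libraries a condition). With 3 against 3 libraries the two-sided exact permutation test cannot fall below p = 0.1, the value obtained, which was 0.233 after adjustment over the 7 comparisons. A against H gave a difference of -0.52, at the smallest exact permutation p these libraries allow (0.0571, adjusted 0.2). H against O gave 0.66 (exact permutation p = 0.0476, adjusted 0.2), and the remaining 4 comparisons had adjusted exact permutation p-values of 0.3 to 0.533, so none passed after adjustment.

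**Figure D4:**
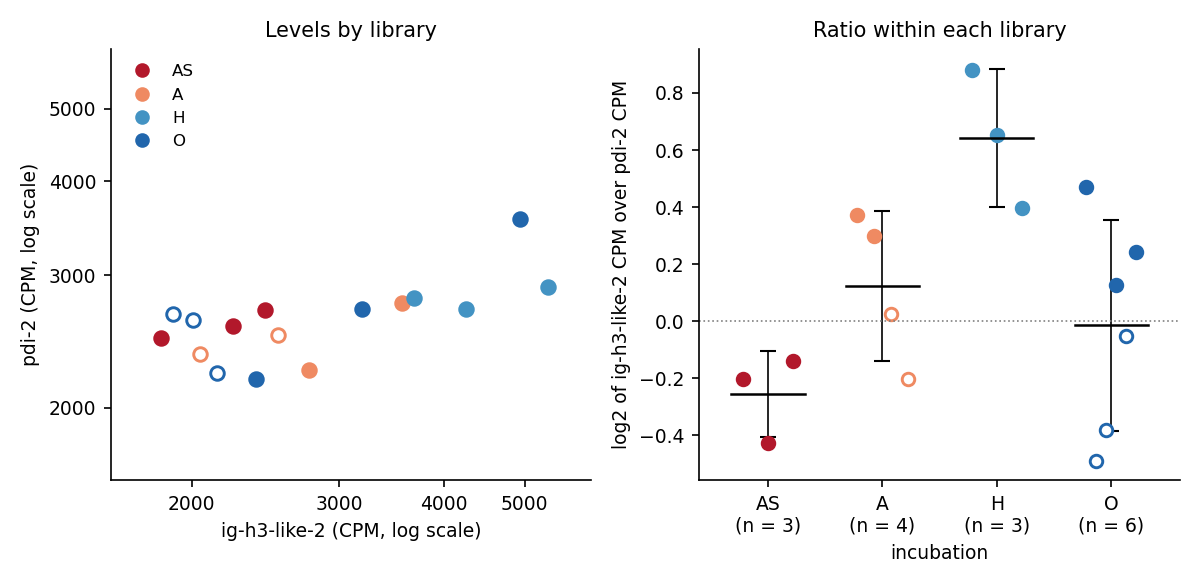
Left, CPM of pdi-2 against CPM of ig-h3-like-2 in the 16 libraries on log axes; right, log2 ratio of ig-h3-like-2 to pdi-2 in each library by incubation, with mean and SD. Open points are the 5 libraries with additional transcripts; the H libraries reach ratios of 1.32 to 1.84, above the 0.744 to 0.908 of AS.

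Across the 16 libraries the transcripts varied together (Pearson's r = 0.676, two-sided permutation p = 0.00284, and Spearman's rho = 0.697, permutation p = 0.00359). This was the 1 pair of transcripts whose correlation was given a p-value. The r was 0.71 within the 11 libraries lacking the additional transcripts (permutation p = 0.0113) and 0.736 after the condition means were subtracted (permutation p = 0.00216), and the 5 remaining libraries were too few for a value of their own. The deviations from condition means were permuted freely between conditions, whose spreads differ, so the p-value for them may be too small. Without H1 and O1, the libraries farthest from the median of ig-h3-like-2, r was 0.453 (permutation p = 0.104) and rho 0.552 (permutation p = 0.0431). By this check the linear relation rested on those samples, although leaving out the extremes also narrows the range of ig-h3-like-2. The value of r was 0.571 to 0.725 when the 16 libraries were left out singly. All points share their library's depth and scaling. With scaling by total counts alone r was 0.584 (permutation p = 0.0144) and rho 0.435 (permutation p = 0.0931).

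Among the named transcripts, those whose log2 CPM followed ig-h3-like-2 most closely over the 16 libraries were tbb-4, a beta-tubulin (r = 0.841), hsp-1, a cytosolic heat shock protein of the Hsp70 family (r = 0.785), and pck-2-1, a phosphoenolpyruvate carboxykinase (r = 0.774). For pdi-2 they were ztf-7, named for a zinc finger protein (r = 0.757), hsp-90-2, a chaperone of the Hsp90 family (r = 0.71), and ig-h3-like-2 itself (r = 0.676). These were the highest of 141 named transcripts, and the median r over all 19092 others tested was -0.05 for ig-h3-like-2 and -0.04 for pdi-2. Over all transcripts, those outside the named set included, 16 had a higher r with ig-h3-like-2 than tbb-4. With pdi-2, 18 had a higher r than ztf-7 and 95 a higher r than ig-h3-like-2.

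The study's development and cell adhesion category held 4 other highly expressed transcripts, and 0 of the 4 were called in each of the 7 comparisons, beside 0% to 1.98% of all transcripts, so that this count says nothing particular of the category. For AS against H, an unadjusted p under 0.05 (edgeR's quasi-likelihood test) was found for 3 of the 4, beside 20.7% of all transcripts tested. Of these, sqst-1-like and vit-4 were lower in AS and ost-1 was higher. sqst-1-like is named for sequestosome, an adaptor of autophagy. Its libraries had 1575, 1417 and 2444 CPM in AS, 1799, 1344, 2268 and 1873 CPM in A, and 3987, 2368 and 2970 CPM in H, and 1550 to 3028 CPM in O (median 1889 CPM). AS and H overlapped only through AS3, and the log2 fold change of AS against H was -0.80 (FDR = 0.119, edgeR). vit-4 encodes a vitellogenin, the yolk protein that nematodes load into oocytes. It had 904.5, 898.1 and 617.6 CPM in AS, 1622, 2040, 819.6 and 1035 CPM in A, and 2579, 2010 and 1175 CPM in H, with 451.1 to 2127 CPM in O (median 846.6 CPM). AS and H did not overlap, and the log2 fold change was -1.26 with a wider error than for ig-h3-like-2 (SE 0.35, FDR = 0.0783, edgeR).

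The matrix members of the category differed in sign. ost-1 encodes the nematode SPARC, or osteonectin, a collagen-binding protein of basement membranes, and it had 3189, 2115 and 2114 CPM in AS and 1335, 735.9 and 1529 CPM in H. Its AS libraries lay above its H libraries (log2 fold change 1.03, SE 0.43, FDR = 0.204, edgeR), opposite in sign to ig-h3-like-2. col-96-like, a cuticle collagen, had 1167, 2514 and 1168 CPM in AS and 2979, 680.1 and 4587 CPM in H, and its H libraries lay on both sides of all AS libraries (log2 fold change -0.78, SE 0.52, FDR = 0.419). The median of the 4 log2 fold changes of AS against H was -0.79, with 3 negative, beside -0.02 over all 17324 transcripts.

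**Figure D5:**
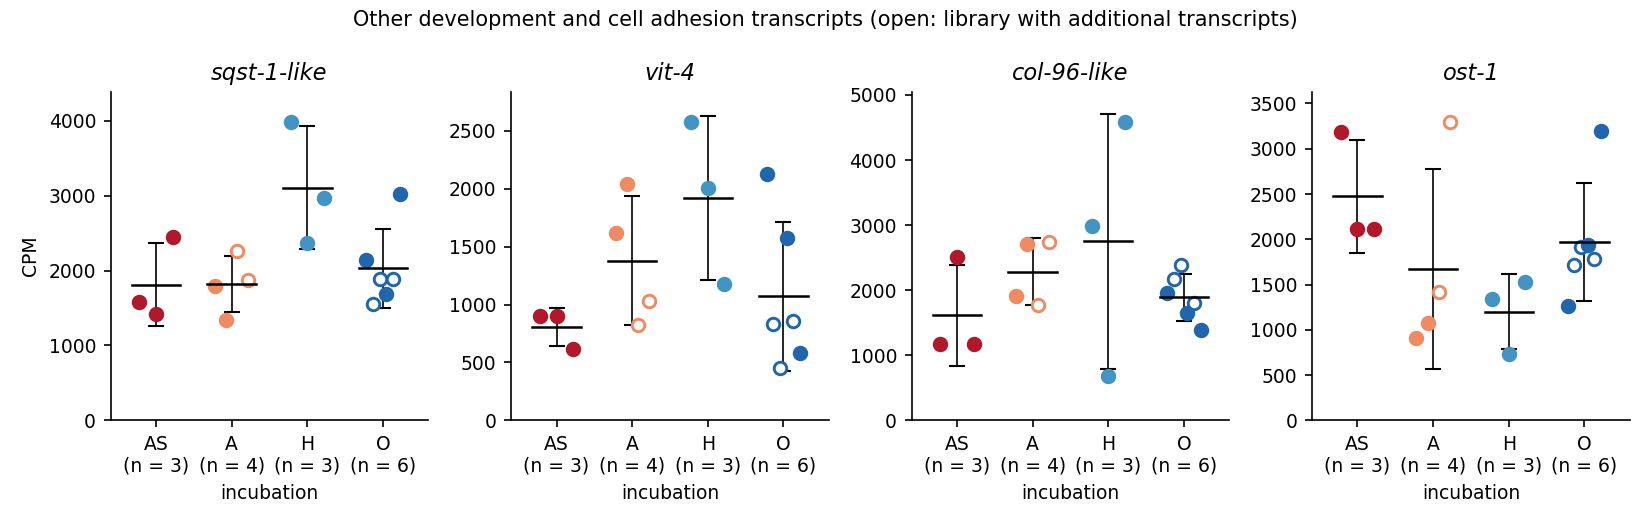
CPM of the 4 other development and cell adhesion transcripts in each library by incubation, with mean and SD; each panel has its own axis from 0 and open points are the 5 libraries with additional transcripts. sqst-1-like and vit-4 have their highest means in H (3108 and 1922 CPM), whereas ost-1 has its highest mean in AS (2473 CPM) and its lowest in H (1200 CPM).

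Of 17 named matrix and cuticle transcripts, which include ost-1 and col-96-like along with matches to basement membrane, integrin, prolyl hydroxylase and molting proteins, 7 had enough reads to be tested among AS, A and H worms and 9 where O worms were included. None was called in any of the 7 comparisons, beside 0% to 1.98% of all transcripts. For AS against H, 4 of the 7 had positive and 3 negative log2 fold changes, with a median of 0.27. An unadjusted p under 0.05 was found for 2 of the 7, beside 20.7% of all transcripts tested. The match to a prolyl 4-hydroxylase alpha subunit, the partner of PDI in collagen hydroxylation, was picked out after its values were seen. It had 6.54 and 12.5 CPM in A3 and A5 and 3.45, 3.28 and 8.87 CPM in O2, O3 and O5. These are the libraries with additional transcripts, and each of the 11 others had at most 0.0711 CPM. The pattern was not particular to it. The listed integrin match had 1.22 to 11.4 CPM in those 5 libraries and at most 0.0568 CPM in the 11 others. A fasciclin domain match had 0.0676 to 1.01 CPM in those 5 and 0 CPM in the 11 others. The other prolyl hydroxylase match of the list, to phy-3, averaged 0.469 CPM in the libraries with additional transcripts and 0.349 CPM in the 11 others. As the libraries were split by transcripts detected, a transcript of low level can differ between them through the split itself.

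Folding proteins were listed as the functional neighbours of pdi-2. All 8 were tested and 0 were called in each of the 7 comparisons, again beside 0% to 1.98% of all transcripts. For AS against H, 3 of the 8 were positive and 5 negative with a median log2 fold change of -0.23. An unadjusted p under 0.05 (edgeR's quasi-likelihood test) was found there for 3 of the 8, beside 20.7% of all transcripts tested. hsp-3, named after the gene for BiP, the Hsp70 chaperone that shares the endoplasmic reticulum with protein disulfide isomerases, was low in most libraries. Whether this transcript encodes the BiP of the worm was not tested. It had 0.3, 0.498 and 0.619 CPM in AS and 1.5, 0.781 and 1.68 CPM in H, while A3 and A5 had 8.68 and 11.3 CPM against 0.612 and 0.227 CPM in A1 and A2. The O libraries with additional transcripts had 6.49, 16.7 and 8.5 CPM, and the O libraries lacking them 0.608, 0.764 and 1.38 CPM. hsp-3 did not overlap between the libraries with and without additional transcripts. As they were split by transcripts detected, a transcript of low level can separate there through the split itself. Before thinning, hsp-3 had reads in all 16 libraries, the fewest in A2 (3.54), and why it separated was not tested. How many of all transcripts separated was not counted. pdi-2, at a far higher level, had 2223 to 2666 CPM in those 5 libraries and 2184 to 3560 CPM in the 11 others.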

How the data were processed

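RNA of 16 batches of whole worms was sequenced, and the deposited values are expected counts per transcript that the authors made from the reads. Per the submitters' processing notes the reads were trimmed with Trimmomatic, mapped with Bowtie2 and counted with RSEM 1.3.1, on a transcriptome assembled *de novo*, and symbiont reads had been removed. RSEM divides reads that match several transcripts, so values need not be whole. They were rounded to whole numbers for the tests. The library totals were 9032241 to 18627740 reads, and no column belonged to another sample. Nothing states which field trip a batch came from, and p-values measure the spread between batches.

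Each library was assigned to the condition its label gives. Transcripts reaching 10 reads in 3 or more replicates of some condition were kept, scaled by TMM and tested with edgeR 4.0.16 (quasi-likelihood F-test, R 4.3.3), with Benjamini-Hochberg adjustment over all transcripts tested. A transcript was called at an FDR of at most 0.05 and at least a 1.5-fold change. AS, A and H were compared in a fit of their 10 libraries whereas O entered a fit of all 16. No oxygen against oxygen is the mean of AS and A minus the mean of H and O on the log scale, except for the ratio, where the 7 libraries were set against the 9. CPM are TMM-scaled, and log2 CPM has a prior count of 2. The correlation used 100000 resamples and the ratio an exact permutation test, two-sided. DESeq2 1.42.0, limma 3.58.1 and other scalings, filters, designs and single-library omissions were tried as alternatives. Scripts were tested on simulated data.

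Libraries with additional transcripts were those above the largest gap in transcripts detected after thinning to 9032239 reads. Named were the 2 transcripts and, as counts and medians, the listed matrix and cuticle, folding, and development and cell adhesion transcripts. Values were given for the development and cell adhesion transcripts, hsp-3 and the prolyl hydroxylase, integrin and fasciclin domain matches. These matches were added after their values were seen. Also named were transcripts of the same assembly component and, for each of the 2, the 3 named transcripts of highest Pearson's r. The transcripts and lists were chosen with earlier results of these data known. Names come from the study's lists of its most abundant transcripts and proteins and, for transcripts called matches, from the part of its annotation table used here, so the matrix and cuticle list is not complete. Sequences, transcript lengths and proteome data were not used here.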

Additional observations from a re-analysis of the deposited data

Results flagged for a closer look

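1 value stood apart from its replicates by Dixon's criterion among 16 such checks, which covered ig-h3-like-2, pdi-2, their ratio, the 4 other development and cell adhesion transcripts and hsp-3, each in A and in O. ost-1, the SPARC or osteonectin transcript, had 3199 CPM in O6, whereas the next O library had 1935 CPM, a gap of 0.653 of the whole range against a critical value of 0.625. By chance about 1 in 20 such checks is positive. The pdi-2 level of O1, 3560 CPM beside 2702 CPM in the next O library, fell just short at 0.624.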

How the results depend on the processing

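The direction of ig-h3-like-2 in AS against H was negative in all 22 alternatives. As the AS and H libraries did not overlap, the single-library omissions could not turn this sign. The call was kept in 13 of the alternatives. Where it was lost, the values were -1.03 with no limit on low counts, -1.04 against a 1.5-fold change, -1.02 in a fit of all 16 libraries, and -1.16 to -0.86 with AS replicates 1, 2 and 3 and H replicates 1, 2 and 3 left out in turn. Fewer libraries remain in these last fits, and the cause of the other losses was not tested. No other comparison of ig-h3-like-2 or pdi-2 was called under any alternative run. Values near 0 turned their sign. ig-h3-like-2 in A against O was 0.043 with limma-voom, 0.054 with the replicate block, 0.021 with a term for the additional transcripts, 0.19 among the 5 libraries that carry them, and -0.15 to 0.23 over single-library omissions. pdi-2 in H against O was -0.025 with the replicate block and -0.0095 without those 5 libraries, and over single-library omissions it was -0.0041 to 0.11 in AS against A and -0.094 to 0.065 in AS against O. The correlation was 0.453 without its 2 farthest libraries.

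The labels do not say that libraries of the same replicate number belong together, and the main tests did not pair them. Of 19 same-numbered pairs, 8 correlated above 0.1 in their deviations from condition means (-0.356 to 0.692). The highest were A and O numbers 1, 3 and 5 (0.692, 0.645 and 0.63). Each of A3, A5, O3 and O5 carries the additional transcripts. A library correlated best with its own number in 17 of 38 checks, but the number expected by chance was not worked out. Whether the numbers pair the libraries was thus not settled. With the replicate block the log2 fold change of ig-h3-like-2 in AS against H was -1.02 (edgeR, FDR = 0.0128), and the block changed no call of either transcript. Over all transcripts, 343 were called in AS against H (804 with the block, 0 to 1300 over the alternatives), 18 in A against H (24, 0 to 137), 0 in AS against A (127, 0 to 442), 0 in H against O (2, 0 to 127), 25 in A against O (4, 0 to 79), 109 in AS against O (435, 9 to 567) and 127 in no oxygen against oxygen (199, 7 to 263), the highest with DESeq2 in each of the 7.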
